A study of Mus musculus with 12 samples.

Results

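The variation described here is that between arrays of the same genotype after a standardised spinal cord contusion. All 12 arrays of the series were used. For each of 19938 genes the mean of an array's own genotype was subtracted from its log2 value, and the 12 differences, called residuals, were examined for genes that varied most and genes that varied together. The mice were Il1a KO (4 arrays), Il1b KO (4 arrays) and wild type (4 arrays), all on a C57BL/6 background and aged 8 to 12 weeks. Each received a 50 kdyn contusion from an impactor, and a 6 mm piece of cord around the lesion was taken 24 h later, so every array is of injured tissue and there is no uninjured baseline. The labels call the arrays biological replicates and name no animals, litters, sexes or deleted exons, so the spread given here is that between these arrays and may be partly technical.

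A contused cord loses neurons and glia at the impact site within hours and is entered by neutrophils first and by monocytes soon after, drawn by chemokines such as Cxcl2. Interleukin-1 alpha and beta act through the same receptor and switch on many of these genes through NF-kB. Type I interferon acts through another receptor and induces a separate set of antiviral genes, such as the Ifit family. A dissected segment can also carry meninges, nerve root and paraspinal muscle.

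Both targeted genes were low in the arrays labelled as their knockout. Il1a was at 4.97, 4.87, 5.03 and 5.03 in the Il1a KO, at 4.85, 5.31, 5.01 and 5.24 in the Il1b KO, and at 6.22, 5.78, 5.74 and 5.76 in wild type, so that both knockouts lay below wild type without overlap. Il1b was at 6.19, 6.62, 6.47 and 6.39 in the Il1b KO, against 7.83, 7.68, 7.78 and 8.06 in wild type. Markers of the labelled tissue were bright on all arrays, with Snap25, a synaptic vesicle fusion protein of neurons, between 13.36 and 13.51.

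Some of the most variable interferon-induced genes and chemokine or cytokine genes carry a known response motif next to their starts, and stretches of 7 such promoters are shown because the description below turns on those genes. As searched, the interferon motif was in 16 of 33 promoters of the interferon cluster described below. The NF-kB motif was in 3 of 37 promoters of the cluster that holds S100a8 (the S100a8 cluster) and in 0 of 20 promoters of the neutrophil list. The sequences are RefSeq promoters of GRCm38.p6, printed 5′ to 3′ along the gene's strand, and capitals mark the motif. The first 4 hold the interferon-stimulated response element, searched as GAAA, any 2 bases and GAAA again, or on the other strand as TTTC, any 2 bases and TTTC.
Ifit1: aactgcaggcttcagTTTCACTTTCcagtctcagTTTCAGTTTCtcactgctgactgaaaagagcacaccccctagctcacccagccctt
Ifit3: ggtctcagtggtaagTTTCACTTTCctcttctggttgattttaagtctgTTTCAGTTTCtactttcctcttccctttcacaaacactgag
Rsad2: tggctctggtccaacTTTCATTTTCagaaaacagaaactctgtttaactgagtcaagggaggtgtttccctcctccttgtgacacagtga
Cxcl10: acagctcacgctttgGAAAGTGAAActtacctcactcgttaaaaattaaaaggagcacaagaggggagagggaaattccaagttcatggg
The next 3 hold an NF-kB motif, searched as GGG, any 2 bases and TTTCC, or on the other strand as GGAAA, any 2 bases and CCC. They are the 3 of the S100a8 cluster that do.
Cxcl2: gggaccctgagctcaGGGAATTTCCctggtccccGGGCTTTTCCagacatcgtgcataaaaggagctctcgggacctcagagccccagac
Cxcl3: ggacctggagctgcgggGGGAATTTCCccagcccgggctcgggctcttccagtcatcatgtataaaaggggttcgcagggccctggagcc
Il6: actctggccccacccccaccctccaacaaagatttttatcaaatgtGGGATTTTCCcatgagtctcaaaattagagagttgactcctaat
The stretches lie at chr19:34640770-34640859 on the plus strand (Ifit1), chr19:34583358-34583447 plus (Ifit3), chr12:26456498-26456587 minus (Rsad2), chr5:92349028-92349117 minus (Cxcl10), chr5:90903787-90903876 plus (Cxcl2), chr5:90786011-90786100 plus (Cxcl3) and chr5:30013024-30013113 plus (Il6). All are upstream of the annotated transcript start.

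Most genes varied little between arrays of a genotype. The pooled SD within genotypes, on 9 residual degrees of freedom, had a median of 0.0841 over all genes, and 401 genes (2.01%) had an SD of at least 0.2, of which 60 reached 0.3. Brighter genes were steadier, with a median SD of 0.0649 among genes brighter than the median gene and 0.108 among dimmer ones. The median SD per genotype was 0.0579 in the Il1a KO, 0.0702 in the Il1b KO and 0.096 in wild type.

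The gene lists of cell types and pathways differed widely in how much they moved. All 17 measured interferon-stimulated genes and all 21 neutrophil genes had an SD above the median of all genes, and 11 of the 17 and 14 of the 21 were among the most variable 5%. The median SD was 0.22 for the interferon-stimulated list and 0.207 for the neutrophil list, which ran up to 0.502 for Retnlg, a resistin-like protein of neutrophils. Monocyte and macrophage genes had a median SD of 0.178, and 11 of 20 were in the most variable 5%. Cytokine and chemokine genes had 0.16, with 21 of 22 above the median. At the other end, neuron genes had a median SD of 0.0456 and 1 of 22 above the median of all genes. Homeostatic astrocyte genes had 0.0548 (2 of 16 above), endoplasmic reticulum stress genes 0.0572 (2 of 18) and heat shock genes 0.0596 (2 of 14). These 4 lists are bright, with median levels of 11.61, 11.26, 10.02 and 10.82. Their median SDs also lay below the 0.0649 of the genes brighter than the median gene. Those genes begin at a level of 8.18 and were not matched to the lists. Whether the lists are steadier than equally bright genes was not tested. Mature oligodendrocyte genes (0.0867) and homeostatic microglia genes (0.0845) were close to the median of all genes.

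**Figure D1:**
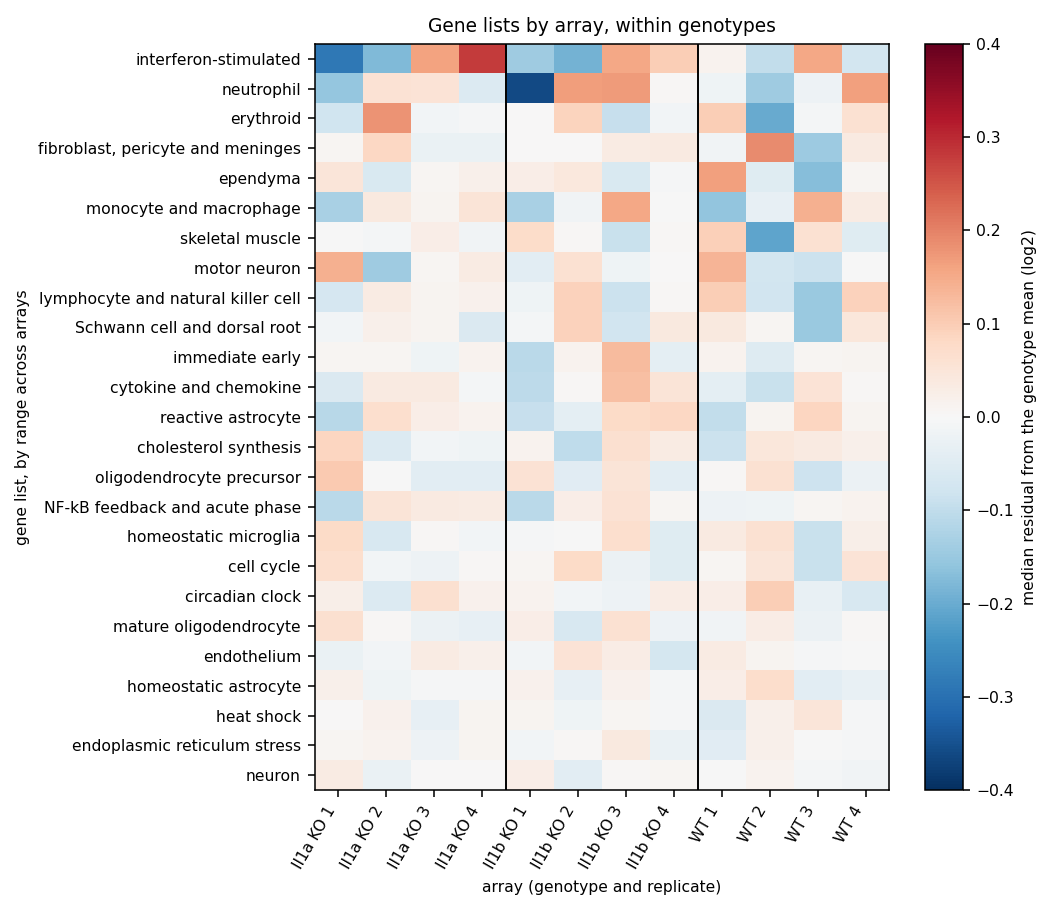
Median residual of 25 gene lists (log2, colour from -0.4 in blue to 0.4 in red) in each of the 12 arrays, with Il1a KO and Il1b KO left of wild type (WT) and lists ordered by their range across arrays. The interferon-stimulated list (range 0.567) and the neutrophil list (range 0.532) stand at the top, and the neuron list (range 0.0726) at the bottom.

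The 4 genes with the largest SD were sex-linked and set by 1 array. Il1a KO replicate 1 had Xist, the RNA that silences an X chromosome in females, at 6.47, against 12.01, 12.08 and 12.08 in the other Il1a KO arrays, 12.04 to 12.08 in the Il1b KO and 11.89 to 12.19 in wild type. The Y-linked Eif2s3y was at 9.15 in that array, against 3.80 to 3.92 in the other Il1a KO arrays, 3.77 to 3.94 in the Il1b KO and 3.65 to 3.92 in wild type. Uty (8.42) and Kdm5d (7.85) were likewise high in that array alone. Kdm6a and Eif2s3x, X-linked genes that escape silencing and were chosen after their values were seen, were at their lowest there, at 8.77 and 11.33. Without that array the SDs of the 4 genes were 0.0779 to 0.149. The median SD without it was 0.198 for the interferon-stimulated list (17 of 17 above the median of all genes) and 0.213 for the neutrophil list (20 of 21).

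Of the other 26 genes among the 30 most variable, with SDs from 0.352 to 0.527, most belong to recognisable programmes. Interferon-induced genes were the most numerous (Ifit1, Ifit3, Ifit3b, Usp18, Ifi205, Ifi209 and Slfn4). Neutrophil genes and neutrophil-attracting chemokines followed (Retnlg, Ngp, Cxcl2 and Cxcl3), beside Chil3 and Ms4a4c of the monocyte and macrophage list. Ms4a4c fell in the interferon cluster described below. Its slope was 0.91 on Ifit1 (limma, adjusted p = 0.0183) and 0.33 on Arg1 (limma, unadjusted p = 0.387). Sfrp4 and Lox encode a secreted Wnt antagonist and a collagen cross-linking enzyme, Myl1 a light chain of fast skeletal muscle myosin, and Kcnj13 a potassium channel of choroid plexus and pigment epithelium. Noncoding RNAs and genes of unknown or unrelated role made up the rest, among them Scarna13, Mir186 and Olfr767. Of the 30, 5 had at least 50% of their residual sum of squares in 1 array, which can hold at most 75%, while 8.78% of all genes did. Of the 500 most variable genes, 0 were called in the Il1a KO against wild type and 3 in the Il1b KO, against 0.171% and 0.813% of all genes tested (limma, adjusted p under 0.05). The SD that picked these genes is also the error in this contrast, so the choice itself makes calls less likely. The shares therefore do not show whether variable genes differ between genotypes. Among the 30, G530011O06Rik, an X-linked noncoding transcript, was the 1 gene called, at 7.16, 7.15, 7.42 and 7.35 in the Il1b KO, against 9.03, 9.86, 9.55 and 9.21 in wild type.

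**Figure D2:**
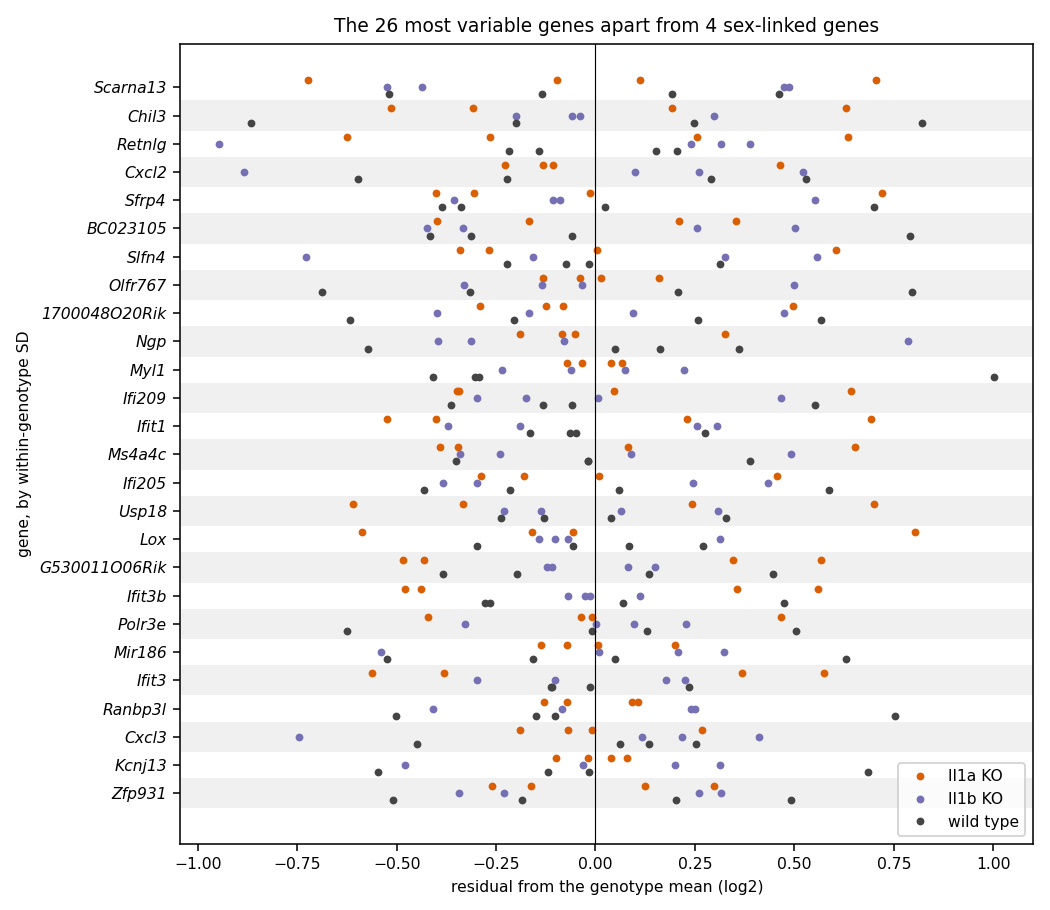
Residual from the genotype mean (log2) of each array for the 26 most variable genes apart from the 4 sex-linked genes, ordered by SD. Points are arrays, with Il1a KO drawn above Il1b KO and wild type in each row. Wild type replicate 3 held 68.1% of the sum of squares of Myl1, whereas Ifit1 and Usp18 spread mainly within the Il1a KO.

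The residuals had 1 dominant axis. The first principal component held 41.1% of the residual variance, the second 12.6% and the third 9.0%. Its scores were -3.23, -0.65, 1.83 and 2.06 in the Il1a KO, -0.45, 10.95, -8.76 and -1.75 in the Il1b KO and 17.72, -6.57, -14.62 and 3.46 in wild type. Il1b KO replicates 2 and 3 stood on opposite sides, and wild type replicates 1 and 3 still farther out at either end. Its strongest genes were Olfr767, Scarna13 and Prp2 at the positive end and Mir186, Zfp931 and Mir384 at the negative end. Decomposed apart, the genes brighter than the median gene had a first component with 34.3% of their residual variance and the dimmer ones with 44.8%. The 4 outlying arrays kept their sides in both, with 4.96 and -3.31 in Il1b KO replicates 2 and 3 against 8.98 and -8.96 in wild type replicates 1 and 3 among brighter genes, and 9.64 and -8.09 against 15.22 and -12.05 among dimmer genes. The mean residual of the 1027 olfactory receptor genes moved with it, at 0.09 in Il1b KO replicate 2 and -0.05 in Il1b KO replicate 3, against 0.12 in wild type replicate 1 and -0.08 in wild type replicate 3. Microarray signal of such genes is mostly background.

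Among the 500 most variable genes, 2 clusters lay along this axis. The clusters, formed by average linkage at a distance of 0.5 in 1 minus r, describe the genes that were clustered and carry no test. The largest held 213 genes, of which 199 were dimmer than the median gene, 35 were olfactory receptors and 6 keratin-associated proteins. All 213 were above their genotype mean in wild type replicate 1 and 0 were in wild type replicate 3, with mean residuals of 0.34 and -0.27. Olfr767, a leading member, was at 9.12, 9.65, 8.82 and 9.01 in the Il1b KO and at 10.10, 8.99, 8.62 and 9.51 in wild type. The second held 53 genes and ran the other way, with a mean residual of -0.28 in Il1b KO replicate 2, -0.38 in wild type replicate 1 and 0.30 in wild type replicate 3. It included 8 microRNA and 11 zinc finger genes, and also Postn, a matrix protein of fibroblasts, Ptgs2, the inducible cyclooxygenase, and Opalin, a myelin protein. Both clusters depend on the settings. Without wild type replicate 1 the first had 104 genes, 71 of them shared, the second had 28 with 22 shared, and the first component held 31.1%. After renewed quantile normalization the cluster that holds Olfr767 had 138 genes (119 shared), and among brighter genes alone 93 (14 shared). With the slope on the olfactory receptor mean removed, the cluster that holds Mir186 had 64 genes and shared 4.

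The larger spread of wild type moved with the same axis. When the slope of each gene on the olfactory receptor mean was removed, the median SD was 0.0572 in the Il1a KO, 0.0574 in the Il1b KO and 0.0606 in wild type. The slope was fitted on these same residuals, in which the olfactory receptor mean spread most in wild type. No degree of freedom was taken off for it, so the fit itself lowers the SD most in wild type. The part of RNA quality, labelling or hybridisation in the axis was not tested.

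**Figure D3:**
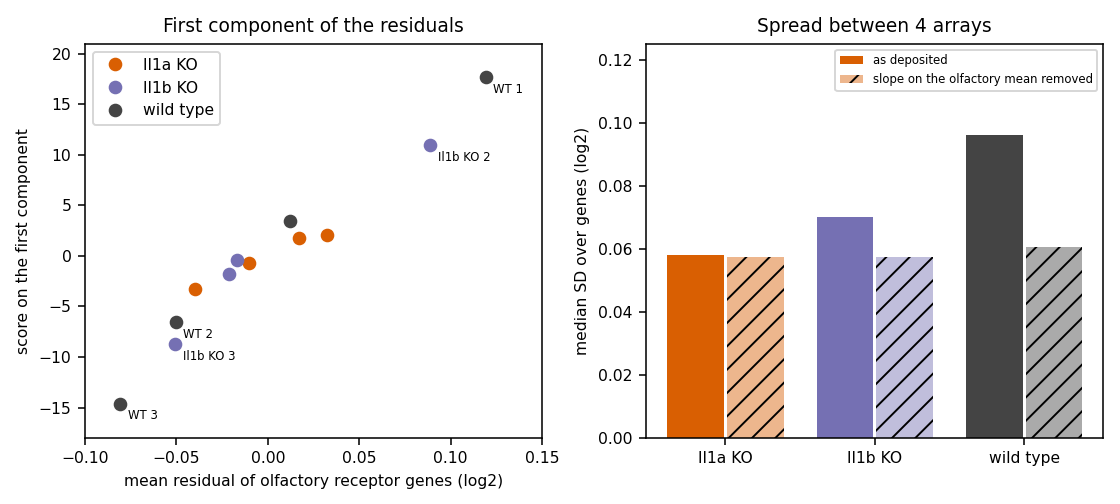
Left, score of each array on the first component against the mean residual of the olfactory receptor genes (log2). Right, median SD over genes between the 4 arrays of each genotype, as deposited (solid) and after removing the slope on the olfactory receptor mean (hatched). Wild type has the largest bar as deposited (0.096), and the 3 genotypes are within 0.0572 to 0.0606 afterwards. The slope was fitted on these same residuals without taking off a degree of freedom, which lowers wild type most.

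A cluster of 42 genes, many of them interferon-induced, varied together, with the widest spread within the Il1a KO. Ifit1, an antiviral protein that binds foreign RNA, was at 8.64, 8.76, 9.39 and 9.86 in the Il1a KO, at 8.42, 8.61, 9.10 and 9.05 in the Il1b KO, and at 9.04, 9.06, 9.38 and 8.94 in wild type. Replicates 3 and 4 of both knockouts were above replicates 1 and 2, wild type replicate 3 was the highest of its group, and the 3 genotypes overlapped. The highest Il1a KO array had 2.33-fold the signal of the lowest, against 1.60-fold within the Il1b KO and 1.36-fold within wild type. Without Il1a KO replicate 1 the Il1a KO range was 2.13-fold.

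Usp18, the protease that restrains interferon signalling, was at 8.37, 8.65, 9.22 and 9.68 in the Il1a KO, at 8.31, 8.40, 8.85 and 8.60 in the Il1b KO, and at 8.89, 8.62, 9.18 and 8.72 in wild type, in almost the same order. Cxcl10, a chemokine for T cells, was at 9.09, 9.22, 9.85 and 10.07 in the Il1a KO, at 8.85, 8.88, 9.09 and 9.42 in the Il1b KO, and at 9.29, 9.32, 9.60 and 9.10 in wild type. Rsad2, the antiviral protein viperin, was at 7.73, 7.65, 8.16 and 8.60 in the Il1a KO, at 7.59, 7.59, 7.92 and 7.96 in the Il1b KO, and at 7.98, 7.84, 8.46 and 7.99 in wild type. Above their genotype mean were 0 of 42 cluster genes in Il1a KO replicate 1 (mean residual -0.44), all 42 in Il1a KO replicate 4 (0.37) and all 42 in wild type replicate 3 (0.28).

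The cluster held 10 of the 17 interferon-stimulated genes, among them the guanylate-binding protein Gbp3, together with the RNA sensors Ddx58 and Ifih1, the guanylate-binding protein Gbp7 and the ubiquitin ligases Herc6 and Rnf213. It also held Klk9, Serpina1c, Olfr920, Chchd5, Zfand4 and Lcn2, a gene of the neutrophil, reactive astrocyte and acute-phase lists. Xist and Kdm6a fell in it as well, and the 40 genes other than these 2 had a mean residual of -0.35 in Il1a KO replicate 1. With that array left out, 38 of the 40 were above the mean of the remaining Il1a KO arrays in replicate 4 (0.23). Without that array the cluster that holds Ifit1 had 43 genes, 29 of them shared, and over all single arrays left out it had 36 to 58. A response element of the kind shown above was in the 300-base promoter of 16 of the 33 cluster genes with a promoter (48.5%), against 607 of all 15614 measured genes (3.89%) and 4 of 37 genes of the S100a8 cluster (10.8%). In Ifit1 the copies began 104 and 85 bases before the start, and in Ifit3 156 and 122 bases before it.

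Ifit1 was added as a marker gene after its residuals had been seen, so its fit is a description. With a mean per genotype and the Ifit1 value as covariate (limma, 8 residual degrees of freedom), 19 genes had a positive slope at an adjusted p under 0.05 (0.0953% of 19937), and 0 a negative one. The adjusted p was 0.00484 for Usp18 (slope 0.95 ± 0.09, SE) and for Rtp4, a chaperone induced by interferon (0.69 ± 0.07). Of the other 16 interferon-stimulated genes, all had a positive slope, against 52.9% of all genes, 14 had an unadjusted p under 0.05, against 2.78% of all genes, and 8 were among those called. Irf7, the factor that amplifies the interferon response (slope 0.37, adjusted p = 0.0183), and Stat2, a signal carrier of the interferon receptor (0.36, adjusted p = 0.0232), were among them. The rest of the list was not called. Its slopes were 0.03 for Cxcl9, 0.17 for Mx1, 0.27 for Oas1a and 0.30 for Oasl1. They were 0.37 for Ifit2, 0.44 for Xaf1, 0.49 for Iigp1 and 0.61 for Gbp3. The calls depend on the Il1a KO extremes, since leaving out Il1a KO replicate 1 or replicate 4 left 0 genes, against 7 to 21 without any other array. With the replicate number as a block, 0 genes were called as well, although same-numbered arrays were not clearly more alike across all genes than other arrays. The median residual of the interferon-stimulated list was nonetheless above 0 in replicate 3 of all 3 genotypes and below 0 in replicate 2 of all 3. In 11 of 22 neuron genes and 10 of 20 muscle genes the slope on Ifit1 was positive, and their median slopes were below 0.01 in size. Other lists shared the positive sign, with 23 of 24 reactive astrocyte genes and 18 of 20 monocyte and macrophage genes. So did 17 of 20 NF-kB feedback and acute-phase genes and 17 of 21 neutrophil genes. Their median slopes were 0.10, 0.20, 0.10 and 0.10, and 3, 4, 2 and 2 genes had an unadjusted p under 0.05. Cell cycle genes had positive slopes in 3 of 21 cases.

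**Figure D4:**
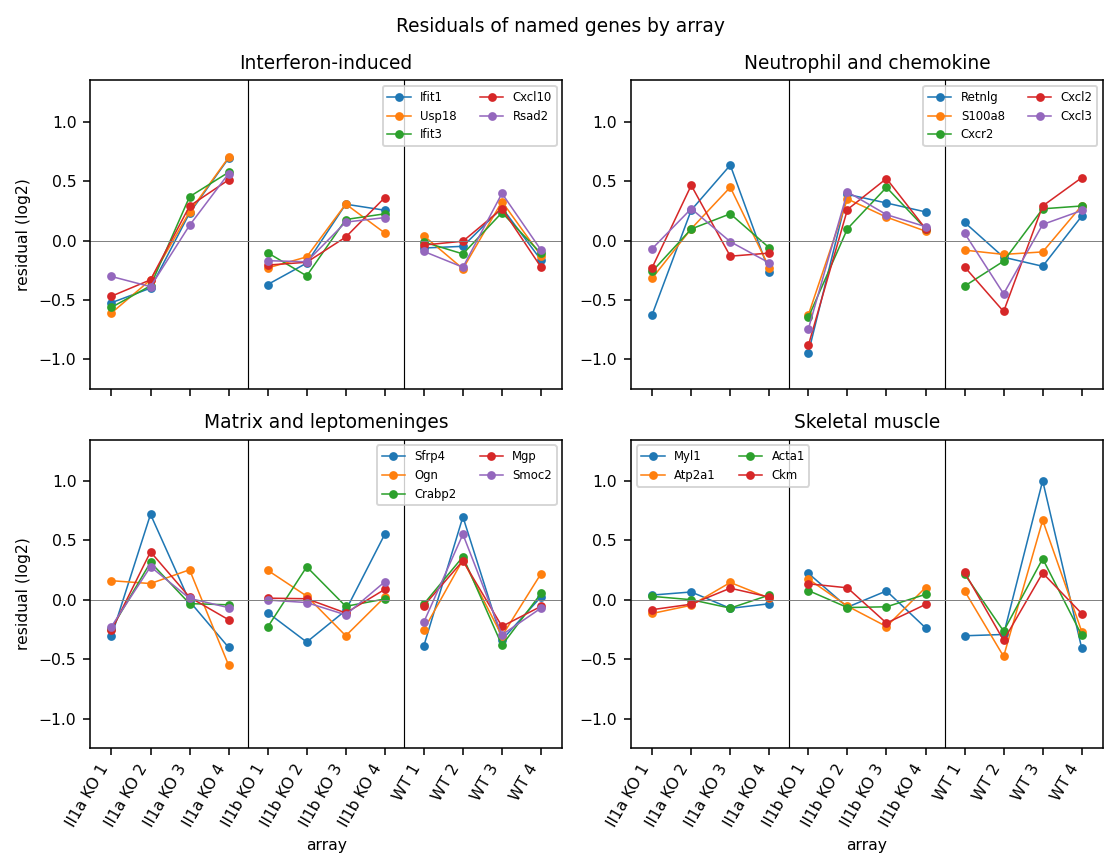
Residuals (log2) by array of genes named in the text, in 4 panels of interferon-induced, neutrophil and chemokine, matrix and leptomeninges, and skeletal muscle genes, with Il1a KO and Il1b KO left of wild type (WT). Lines join arrays of a genotype and mark no order. Interferon genes spread mainly across the Il1a KO arrays, neutrophil genes are lowest in Il1b KO replicate 1, and muscle genes spread mainly across wild type.

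The S100a8 cluster had 51 genes, among them neutrophil, macrophage and cytokine genes, with Il1b KO replicate 1 at the low end. S100a8, a calprotectin subunit abundant in neutrophil cytosol, was at 7.89, 8.31, 8.66 and 7.98 in the Il1a KO, at 7.83, 8.81, 8.66 and 8.54 in the Il1b KO, and at 8.47, 8.44, 8.46 and 8.85 in wild type. Retnlg was at 6.93, 7.81, 8.19 and 7.29 in the Il1a KO, at 6.76, 8.10, 8.02 and 7.95 in the Il1b KO, and at 7.83, 7.54, 7.46 and 7.88 in wild type. Il1b KO replicate 1 had the lowest value of all 12 arrays for both genes and Il1a KO replicate 1 came next, while wild type varied less.

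The chemokine Cxcl2 was at 7.55, 8.25, 7.65 and 7.67 in the Il1a KO, at 7.70, 8.85, 9.11 and 8.69 in the Il1b KO, and at 7.31, 6.93, 7.82 and 8.06 in wild type. The other 3 Il1b KO arrays exceeded every wild-type array, but Il1b KO replicate 1 lay inside the wild-type range, and the contrast of the Il1b KO with wild type was 1.06 ± 0.29 (SE) with an adjusted p of 0.14. Arg1, an enzyme of recruited macrophages, was at 9.58, 9.92, 9.76 and 9.78 in the Il1a KO, at 9.003, 10.16, 9.92 and 9.68 in the Il1b KO, and at 10.10, 10.09, 10.19 and 10.22 in wild type. Within the Il1b KO its range was 2.23-fold, against 1.26-fold within the Il1a KO and 1.10-fold within wild type.

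Il6, the acute-phase cytokine, stood out in another Il1b KO array, at 5.86, 6.05, 7.05 and 6.28, against 5.69, 5.56, 6.19 and 6.03 in wild type. The cluster also held Trem1, Cxcr2, Il1r2, Clec4d, Clec4e, Mmp8 and S100a9, which made 9 of the 21 neutrophil genes, 4 of 20 monocyte and macrophage genes (Arg1, Cd14, Thbs1 and Ifitm6) and the pattern recognition receptor gene Tlr4. Of the 22 cytokine and chemokine genes it held 3 (Cxcl2, Il6 and Il11). Members such as Sgk1, Pdk4, Angptl4, Rnf125 and Stc1 were in none of the lists, so the cluster is mixed. None of its 51 genes was above the genotype mean in Il1b KO replicate 1 (mean residual -0.46), 8 were in Il1a KO replicate 1 (-0.17), and 49 were in Il1b KO replicate 3 (0.29). Without Il1b KO replicate 1 the cluster that holds S100a8 had 8 genes, 7 of them shared, so its size rests on that array. NF-kB motifs were in 3 of its 37 promoters (8.11%), those of Cxcl2, Cxcl3 and Il6, against 1.83% of all measured genes. In bulk tissue, fewer neutrophils and less RNA per neutrophil cannot be told apart.

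In the fit on S100a8, 2 genes were called, both of the neutrophil list and both with positive slopes (0.01% of 19937 genes). Retnlg changed by 1.41 ± 0.14 (SE) per unit of S100a8 (limma, adjusted p = 0.00497) and S100a9, its partner in calprotectin, by 0.85 ± 0.11 (adjusted p = 0.0332). All 20 other neutrophil genes had positive slopes (median 0.40), against 52.1% of all genes. Of the 20, 15 had an unadjusted p under 0.05, against 3.25% of all genes. Granule genes differed in slope, with 0.65 for Ngp, 0.64 for Mmp8, 0.20 for Ltf, 0.10 for Mpo, 0.08 for Camp and 0.01 for Elane (adjusted p = 0.999 each), and differences between these slopes were not tested. Monocyte and macrophage genes had positive slopes in 20 of 20 cases (median 0.16), homeostatic microglia genes in 6 of 12, and neuron genes in 0 of 22 (median -0.04). The positive sign was not confined to myeloid lists. It was seen in 22 of 24 reactive astrocyte, 18 of 20 NF-kB feedback and acute-phase and 19 of 22 cytokine and chemokine genes. It was also seen in 16 of 17 interferon-stimulated, 14 of 15 lymphocyte and natural killer cell and 9 of 10 Schwann cell and dorsal root genes. Homeostatic astrocyte genes had it in 1 of 16 cases. Leaving out Il1b KO replicate 1 or Il1a KO replicate 3 left 0 calls.

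On Arg1, 1 gene was called (0.00502% of genes), Il1f9, the interleukin-36 gamma gene, with a slope of 1.05 ± 0.09 (adjusted p = 0.00151). Il1f9 was at 6.64, 7.07, 6.96 and 6.90 in the Il1a KO, at 6.82, 8.02, 7.69 and 7.38 in the Il1b KO, and at 7.19, 6.99, 7.19 and 7.37 in wild type. Bst1 and Plin2, a myeloid ectoenzyme and a lipid droplet coat protein, came next (adjusted p = 0.0694 each). The slopes of 19 of 21 neutrophil genes and 19 of 19 other monocyte and macrophage genes were positive, against 53.0% of all genes. Of these lists, 14 and 4 genes had an unadjusted p under 0.05, against 3.21% of all genes. Positive slopes on Arg1 were also seen in 20 of 24 reactive astrocyte, 18 of 20 NF-kB feedback and acute-phase and 18 of 20 immediate early genes. Neuron genes had them in 0 of 22 cases. Without Il1b KO replicate 1, 0 genes were called.

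The cluster of 25 genes that holds Sfrp4 and Lox stood high in 1 Il1a KO array and 1 wild-type array. Sfrp4 was at 9.10, 10.13, 9.40 and 9.01 in the Il1a KO, at 9.52, 9.28, 9.54 and 10.19 in the Il1b KO, and at 9.04, 10.13, 9.09 and 9.46 in wild type. All 25 genes were above their genotype mean in Il1a KO replicate 2 (mean residual 0.31) and in wild type replicate 2 (0.37), and 21 were in Il1b KO replicate 4 (0.13). It held 3 of the 16 fibroblast, pericyte and meninges genes, the small proteoglycan Ogn, the retinoic acid carrier Crabp2 and the calcification inhibitor Mgp, and 2 of the 20 NF-kB feedback and acute-phase genes, the serum proteins Saa1 and Lbp. Prg4, Col8a1, Col12a1, Slc47a1 and Foxd1 were other members, named after their values were seen. Crabp2 was at 8.30, 8.86, 8.51 and 8.50 in the Il1a KO, at 8.51, 9.02, 8.69 and 8.75 in the Il1b KO, and at 8.78, 9.18, 8.43 and 8.87 in wild type. Without wild type replicate 2 the cluster that holds Sfrp4 had 20 genes and shared 4, and without Il1a KO replicate 3 it had 59 and shared 5. Among brighter genes alone it had 166 and shared 2.

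Skeletal muscle genes varied mainly in wild type. Myl1 was at 5.89, 5.92, 5.78 and 5.82 in the Il1a KO, at 6.00, 5.71, 5.85 and 5.54 in the Il1b KO, and at 6.09, 6.11, 7.40 and 5.99 in wild type, with wild type replicate 3 holding 68.1% of its residual sum of squares. Acta1, the actin of skeletal muscle, was at 7.91, 7.88, 7.81 and 7.92 in the Il1a KO, at 7.92, 7.77, 7.78 and 7.89 in the Il1b KO, and at 8.40, 7.92, 8.53 and 7.89 in wild type. Atp2a1, the calcium pump of fast fibres, was at 7.29, 7.36, 7.55 and 7.42 in the Il1a KO, at 7.47, 7.25, 7.08 and 7.40 in the Il1b KO, and at 7.86, 7.31, 8.46 and 7.52 in wild type. Wild type replicates 1 and 3 were thus the 2 highest arrays for Acta1 and Atp2a1, and also the 2 ends of the first component, where they lay on opposite sides.

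No gene was called in the fit on Acta1 (limma; 863 genes, 4.33%, at an unadjusted p under 0.05). Of 19 other muscle genes, 18 nonetheless had positive slopes, against 48.8% of all genes, and 10 had an unadjusted p under 0.05. Atp2a1 had a slope of 1.36 and the giant sarcomere proteins Neb and Ttn 0.69 and 0.66 (adjusted p = 0.998 each). The slopes differed widely, from 1.41 for Myl1 to -0.15 for Pvalb. They were 0.18 for Mylpf, 0.17 for Tnnc2, 0.14 for Tnni2, 0.09 for Myh1, 0.08 for Ryr1, 0.05 for Casq1 and 0.03 for Pygm. Fibroblast, pericyte and meninges genes had positive slopes in 2 of 16 cases, with a median of -0.42.

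Smaller clusters held Chil3 and the class II gene H2-Ab1. Chil3, a chitinase-like protein of macrophages, was at 6.32, 7.46, 6.52 and 7.02 in the Il1a KO, at 7.15, 7.29, 7.31 and 7.64 in the Il1b KO, and at 7.45, 6.78, 8.47 and 7.89 in wild type, a 3.22-fold range within wild type. Its cluster of 11, chosen after the values were seen, held the vasodilator peptide gene Adm, the mTOR inhibitor Ddit4 and the plasma peroxidase Gpx3 beside genes with no common role, such as Polr3e and Olfr603, and 0 of 11 were above the mean in wild type replicate 2 (mean residual -0.44). Without that array the cluster that holds Chil3 had 20 genes and shared 5, and over all single arrays left out it had 6 to 68. H2-Ab1, a class II chain, was at 8.63, 8.30, 8.81 and 8.48 in the Il1a KO, at 8.51, 8.57, 9.11 and 8.60 in the Il1b KO, and at 8.29, 8.54, 7.81 and 8.44 in wild type. H2-Aa, the invariant chain Cd74 and the chemokine Ccl17 went with it in a cluster of 9 that also held Scgb3a1, V1ra8 and Hdc and was high in Il1b KO replicate 3 (0.33) and Il1a KO replicate 3 (0.23). Over single arrays left out the cluster that holds H2-Ab1 had 6 to 23 genes.

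Neuron genes had the lowest median SD of the 26 lists. Snap25 was at 13.44, 13.43, 13.44 and 13.46 in the Il1a KO, at 13.46, 13.39, 13.42 and 13.45 in the Il1b KO, and at 13.44, 13.36, 13.51 and 13.44 in wild type, an SD of 0.0412. Syt1, the calcium sensor of vesicle release, had 0.062, and the least variable neuron gene was Stmn2 with 0.0223. Motor neuron genes had a median SD of 0.112, with 8 of 8 above the median of all genes, but 5 of the 8 were dimmer than the median gene and 4 of 8 were above the 0.108 of such dim genes. Chodl, a motor neuron marker, was at 8.48, 7.90, 7.93 and 8.09 in the Il1a KO, against 8.09, 7.88, 7.83 and 7.73 in wild type, and its SD of 0.178 was 0.109 without Il1a KO replicate 1. Myelin genes ranged from Trf (SD 0.0204) to Opalin (0.198), which was at 9.57, 9.19, 9.36 and 9.24 in the Il1a KO, 9.15, 8.81, 9.31 and 9.10 in the Il1b KO and 8.51, 9.02, 8.87 and 8.85 in wild type.

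The fit on Snap25 called 0 genes (limma; 1397 genes, 7.01%, at an unadjusted p under 0.05, and 2 calls with a variance trend and robust fitting). Of 21 other neuron genes 11 had a positive slope, beside 41.9% of all genes. Muscle genes had positive slopes in 17 of 20 cases and fibroblast, pericyte and meninges genes in 2 of 16, with 11 and 9 at an unadjusted p under 0.05. The 6 negative slopes with the lowest p were those of Copz2, Avil, Dhrs3, Rab3d, Fbln1 and Vamp8 (-3.29 for Rab3d to -2.73 for Vamp8, adjusted p = 0.245 each), where Avil is an actin-binding protein of sensory neurons and Fbln1 a matrix protein.

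The fits on the activity gene Fos and the stress gene Hspa1a called no gene. Fos was at 8.81, 8.70, 8.60 and 8.64 in the Il1a KO, at 8.79, 8.98, 8.97 and 8.76 in the Il1b KO, and at 8.81, 8.75, 8.84 and 8.65 in wild type, and its fit called 0 genes (limma; 366 genes, 1.84%, at an unadjusted p under 0.05). Of 19 other immediate early genes 17 had positive slopes, against 52.8% of all genes, among them the synaptic gene Arc (0.61, adjusted p = 1). Their median slope was 0.31, against 0.01 over all genes, and 2 had an unadjusted p under 0.05. Hspa1a, the inducible heat shock protein 70, was at 8.97, 9.09, 8.94 and 9.02 in the Il1a KO, at 8.97, 8.91, 8.87 and 8.95 in the Il1b KO, and at 9.07, 8.93, 9.08 and 9.04 in wild type. Its fit called 0 genes (limma; 941 genes, 4.72%, at an unadjusted p under 0.05). Other heat shock genes had positive slopes in 6 of 13 cases and muscle genes in 19 of 20, against 46.8% of all genes. Of these lists, 1 and 9 genes had an unadjusted p under 0.05.

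Relations between the 6 marker genes were tested over their 12 residuals in 15 pairs, by a two-sided exact permutation test within genotypes, and 0 passed after Benjamini-Hochberg adjustment. S100a8 and Arg1 gave r = 0.797 and rho = 0.72 (exact permutation p = 0.0125 and 0.0191, adjusted 0.0939 and 0.149), and r = 0.749 without the 2 arrays farthest from the median of S100a8. S100a8 and Acta1 gave r = -0.393 and rho = -0.552 (exact permutation p = 0.0123 and 0.0297, adjusted 0.0939 and 0.149), and r = -0.449 without those 2 arrays. Acta1 and Hspa1a gave r = 0.596 and rho = 0.713 (exact permutation p = 0.0366 and 0.0245, adjusted 0.183 and 0.149), and r = 0.75 without the 2 farthest. Snap25 and Acta1 gave r = 0.725 and rho = 0.664 (exact permutation p = 0.0592 and 0.0491, adjusted 0.208 and 0.184), but r = 0.277 without wild type replicates 2 and 3, so that relation rests on these arrays.

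**Figure D5:**
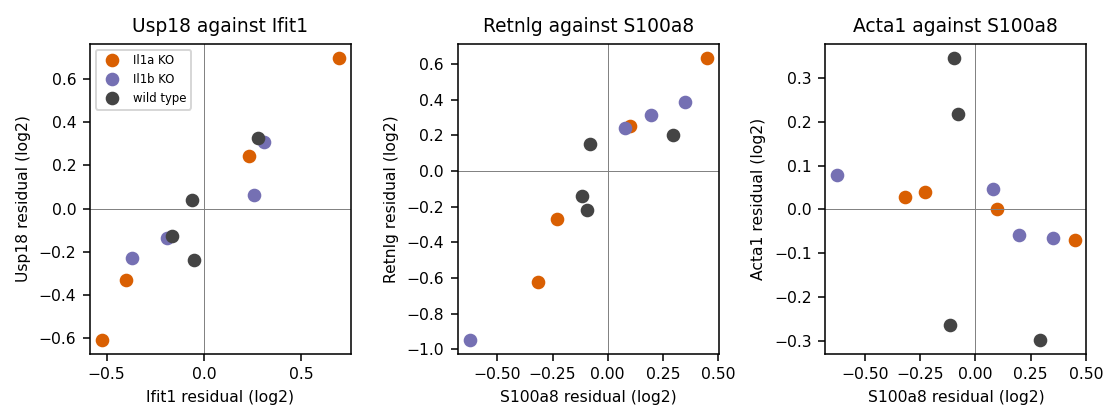
Residuals (log2) of Usp18 against Ifit1, of Retnlg against S100a8 and of Acta1 against S100a8, 1 point per array, coloured by genotype. The 2 left panels rise along a line, and in the right panel the 4 wild-type arrays spread in Acta1 far more than the knockout arrays.

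The genotype contrasts changed with how this variation was modelled. With a mean per genotype, limma called 34 genes in the Il1a KO against wild type, 15 higher (0.0752% of genes) and 19 lower (0.0953%), and 162 in the Il1b KO, 84 higher (0.421%) and 78 lower (0.391%). When arrays far from their genotype were given less weight, 306 and 1145 were called, and wild type replicates 1 and 3 had the lowest weights (0.383 and 0.327). Wild type replicate 2 had 0.574 and wild type replicate 4 the highest weight of all arrays (2.86). The weighted wild-type mean thus leaned mainly on replicate 4. Acta1 itself differed from wild type by -0.31 ± 0.12 (SE) in the Il1a KO and -0.35 ± 0.12 in the Il1b KO (adjusted p = 0.487 and 0.245), and with it as a covariate 16 and 67 genes were called.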

How the data were processed

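The deposited values are log2 expression values, 1 per probe set and array, made by the authors from Affymetrix scans and used as deposited. The submitters' processing notes list GCOS 1.4, RMA, limma and Partek without role or order. No source says which tool made the values. Their range (2.97 to 14.4) and near-equal array medians (8.16 to 8.20) resemble RMA output, which is compressed for dim genes. The annotation's genome build is not given in the sources used here, and no detection calls were used.

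Of 35557 probe sets, 21789 had 1 gene symbol, 1621 had several and 12147 had no listed gene. The brightest set stood for a gene, which left 19938 genes, 19856 of them matched to RefSeq. Probe sets with the same values as another numbered 703. Residuals are deposited values minus the genotype mean. Marker-gene and genotype fits used limma 3.58.1 in R 4.3.3, without a trend, on all 12 arrays, two-sided, with Benjamini-Hochberg adjustment over all genes, and were tested on simulated data. A slope is the change of a gene's log2 value per unit of the marker's log2 value. The number of arrays limits the precision.

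Named genes are the 30 with the largest SD, the marker genes, the 3 most variable of each list, the 6 strongest of each fit and component per direction, Il1a, Il1b, Xist and Eif2s3y. Other cluster members and list members were chosen after their values were seen. Members, lists and tests were chosen with earlier results of these data known. Alternatives were another normalization, all probe sets, bright genes only, other marker genes, array weights, the replicate number, and leaving out each array. Those with Ifit1 or the olfactory receptor mean, the components per brightness class or without sex-linked genes, and the clusters, ranges and SDs without single arrays were added after the data were seen.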

Additional observations from a re-analysis of the deposited data

Results flagged for a closer look

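In 213 groups of 4 values (named genes, list medians and component scores per genotype), 15 (7.04%) had 1 array farther from the others than Dixon's 95% critical value for 4 values allows. Chance gives about 5% in independent groups picked without regard to their spread. Many genes here were named for a large SD or loading, and several groups overlap, so these shares cannot be compared. Il1a KO replicate 1 held 7 of the 15. These were Xist at 6.468, Eif2s3y at 9.155, Uty at 8.421, Kdm5d at 7.853, the median of the sex-linked list at 8.137, the median of the cell cycle list at 7.283 and the score on the second component at 9.724. Il1b KO replicate 1 was lowest for Retnlg (6.761) and for the median of the cytokine and chemokine list (7.657). Other Il1b KO arrays stood apart in Lox (9.364, replicate 4) and in the median of the homeostatic astrocyte list (11.144, replicate 2). Single wild-type arrays stood apart in Myl1 (7.4, replicate 3), S100a8 (8.847, replicate 4), Dnajb1, a heat shock co-chaperone (8.94, replicate 2), and the median of the homeostatic astrocyte list (11.145, replicate 4).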

How the results depend on the processing

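Quantile normalization again did not move any fit's call count by over 1.5 times. Genes varying with S100a8 numbered 2, and 1 over all probe sets, 4 with a variance trend and robust fitting, and 0 with Ly6g as marker. Arg1 gave 1 gene, and 12 with the trend, 6 with the olfactory receptor mean as second covariate and 0 with F13a1. Snap25 gave 0, and 1 without dim genes and 2 with the trend. Ifit1 gave 19, and 31 with the olfactory receptor mean. The contrasts, 34 in the Il1a KO and 162 in the Il1b KO, were 306 and 1145 with array weights, 16 and 67 with Acta1 as covariate, and 68 and 303 without dim genes, where 230 of the 303 were higher in the Il1b KO and 73 lower, against 84 and 78 over all genes. The Il1a KO contrast gave 15 with S100a8 and 52 with the olfactory receptor mean as covariate. Clusters of at least 8 genes numbered 10 among 500 genes, 6 among 300 and 16 among 1000.

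Leaving out each array in turn gave 18 to 49 genes for the Il1a KO (18 without wild type replicate 4), 106 to 177 for the Il1b KO (106 without wild type replicate 4), 0 to 1 for Acta1, 0 to 2 for Arg1, 0 to 0 for Fos, Hspa1a and Snap25, 0 to 21 for Ifit1, 0 to 2 for S100a8, 9 to 17 clusters, 0 to 1 marker pairs past adjustment and 31.1% to 45.57% for the first component.

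Across all genes, same-numbered arrays were not clearly more alike than other arrays. Residuals of same-numbered arrays correlated across genes at -0.374 to 0.441 (12 pairs, median -0.015), those of other pairs at -0.511 to 0.568 (36 pairs, median -0.034). With a replicate block, 0 genes were called for S100a8, Arg1 and Ifit1, 1 for Hspa1a, 26 in the Il1a KO and 120 in the Il1b KO, and this fit leaves 3 fewer residual degrees of freedom. The number of arrays and dim signal near background limit all counts.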

Other observations

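Some lists had a shared sign by replicate number, although same-numbered arrays were not clearly more alike across all genes than other arrays. The median residual of the interferon-stimulated list was 0.16 in the Il1a KO, 0.16 in the Il1b KO and 0.15 in wild type in replicate 3, and -0.18, -0.19 and -0.10 in the same genotypes in replicate 2. The monocyte and macrophage list was at -0.13, -0.13 and -0.16 in replicate 1. A test of the replicate number within genotypes (limma) called 0 of 19938 genes, with 679 (3.41%) at an unadjusted p under 0.05. Ifit1 had an unadjusted p of 0.0203 and an adjusted p of 1 in this test. These 2 lists were picked after their values were seen, and whether a number marks a shared day or batch was not tested, since the labels do not say.

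The third component (9.0%) placed Il1a KO replicate 1 (-6.10) and wild type replicate 3 (-6.18) opposite wild type replicate 2 (6.79), and its strongest genes were the sex-linked Xist at the positive end and Eif2s3y, Uty and Kdm5d at the negative end. With these 4 genes left out, the third component (8.77%) had scores of -2.09, -3.09 and 1.64 in the same 3 arrays and its widest scores in Il1b KO replicates 3 (8.67) and 1 (-6.35). Slfn4, Retnlg and Trem1 led its positive end then, and Atp2a1 its negative end. Hoxd10, a homeobox gene that patterns the caudal cord, was at 8.97, 7.99, 7.96 and 8.23 in the Il1a KO, at 8.18, 8.61, 8.02 and 8.29 in the Il1b KO, and at 7.87, 7.69, 8.01 and 7.59 in wild type. Its SD of 0.326 was 0.204 without Il1a KO replicate 1.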
